A study of Mus musculus with 6 samples.

Results

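The fibrillar collagen genes encode the chains that assemble into the banded fibers of bone, skin, tendon and cartilage. They were taken as the rows of the count tables whose Ensembl identifiers map to Col1a1, Col1a2, Col2a1, Col3a1, Col5a1, Col5a2, Col5a3, Col11a1, Col24a1 and Col27a1, which gave 10 genes of 53801. The rule uses gene names and no measured value, although the family was picked with earlier results of these data known. Col11a2, which also encodes a chain of type XI collagen, is not among these genes.

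The data are RNA sequencing of the mouse pre-osteoblast line MC3T3-E1, in 3 control and 3 Hdac4-knockdown libraries. Control cells carried a lentivirus expressing a scrambled, non-silencing short hairpin RNA (shRNA), and Hdac4-knockdown cells carried one expressing an shRNA against Hdac4, a class II histone deacetylase. Both groups were grown in MEM-α with 10% FBS, infected for 12 h with 5 µg/mL polybrene and selected for 7 days in 5 µg/mL puromycin, so that the vector and the selection were shared. The question of the sequencing was which genes change when Hdac4 is reduced. The libraries of a group came from separate RNA samples of the infected line, which the study's text calls biological replicates. The sources used here do not say that the infections or cultures were separate. The p-values therefore measure the spread between RNA samples, which may be technical, and a difference between the infected lines cannot be told apart from an effect of the knockdown.

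Each fibrillar collagen is a rod of 3 chains wound around one another. In the helical part of a chain glycine recurs at regular steps, the only residue small enough to sit at the core. Type I collagen, made of 2 α1 chains from Col1a1 and 1 α2 chain from Col1a2, is the main protein of bone. Type III collagen, from Col3a1, joins type I in skin, vessel and early repair tissue, type V collagen (Col5a1, Col5a2, Col5a3) starts and limits the growth of type I fibrils, and types II and XI (Col2a1, Col11a1) form the fibrils of cartilage. Types XXIV and XXVII (Col24a1, Col27a1) form a separate branch of the family with a shorter helix.

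The glycine repeat is visible in the exons of these genes. In the longest coding transcript of each gene (GENCODE M21, GRCm38), the longest stretch with a glycine codon (GGN) at intervals of 3 codons held 337 to 344 triplets in the 8 genes of types I, II, III, V and XI. It held 216 triplets in Col24a1 and 217 in Col27a1. In all 10 genes, every exon lying wholly inside this stretch was a multiple of 9 bases long, the length that codes for 1 glycine triplet. Exons of 54 bases numbered 21 to 33 per gene. One such exon is shown for 6 of the genes, coding strand 5′ to 3′, with the glycine codon at each repeat position in capitals, to show the repeat that the compared chains share.

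Col1a1, exon 8, chr11:94939904-94939957, plus strand: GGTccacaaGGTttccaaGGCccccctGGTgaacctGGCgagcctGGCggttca
Col1a2, exon 8, chr6:4515481-4515534, plus strand: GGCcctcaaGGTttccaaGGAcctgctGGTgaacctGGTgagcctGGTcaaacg
Col2a1, exon 10, chr15:97996489-97996542, minus strand: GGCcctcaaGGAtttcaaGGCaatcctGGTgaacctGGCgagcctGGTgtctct
Col3a1, exon 6, chr1:45325360-45325413, plus strand: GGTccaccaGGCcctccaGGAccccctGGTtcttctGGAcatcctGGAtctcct
Col11a1, exon 15, chr3:114108281-114108334, plus strand: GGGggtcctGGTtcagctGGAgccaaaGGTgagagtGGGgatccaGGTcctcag
Col24a1, exon 7, chr3:145328731-145328784, plus strand: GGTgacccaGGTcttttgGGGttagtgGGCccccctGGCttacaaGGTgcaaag

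Set against the Col1a1 exon base by base, the Col2a1 exon was the same at 43 of 54 bases, the Col1a2 exon at 42, the Col3a1 exon at 35, the Col11a1 exon at 26 and the Col24a1 exon at 23. These exons were taken by their length and place and were not aligned as counterparts. Each of them holds 6 glycine codons at the repeat positions, and the Col1a1 and Col11a1 exons hold 1 more outside them, left in lower case.

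Reads counted on genes numbered 29096544 to 31651826 per library, and 14531 genes passed the filter on low counts. Hdac4 itself was counted 1243, 1204 and 1136 times in the control libraries against 950, 927 and 887 times after knockdown. That is 40.3 ± 0.412 CPM (counts scaled to library size, TMM-normalised; SD, n = 3) against 29.6 ± 0.981 CPM (SD, n = 3), and 73.6% of control remained (log2 fold change -0.44, SE 0.057, edgeR adjusted p = 8.98e-07). Gm26720, which overlaps 3536 of the 15813 exon bases of Hdac4, had no counts. Reads that fit several genes were set aside as ambiguous. They took 6.36% to 6.51% of the reads in the tables in control libraries and 5.84% to 5.92% in Hdac4-knockdown libraries. The absence of counts thus does not show whether Hdac4 lost reads there. Of 10 osteoblast markers, Alpl, Ibsp, Bglap and Bglap2 lay under 0.5 CPM in every library. Runx2, Sp7, Sparc and Dmp1 rose, Spp1 fell, and Phex was called neither higher nor lower. The rise of Runx2 was small, from 69.9 to 79.5 CPM (log2 fold change 0.19), and its libraries overlapped between the groups. Sp7 went from 0.145 to 2.71 CPM. The summed osteoblast markers ran from 4154 to 4197 CPM in control and from 4020 to 4145 CPM in Hdac4-knockdown libraries. Runx2 and Sp7 made up a small part of this sum, which does not show a stage of the lineage. All 5 skeletal muscle markers fell, from a sum of 174 to 180 CPM to 32.8 to 35.4 CPM, and 2 of 5 myofibroblast and smooth muscle markers (Acta2, Des) fell, from 1031 to 1064 CPM to 235 to 261 CPM. Tagln, Cnn1 and Myh11 of the latter list lay under 0.5 CPM in every library. Summed neuron and glia markers ran from 408 to 424 CPM and then from 74.9 to 85.5 CPM, with Nefl and Tubb3 called lower and Snap25 at 0. Adipocyte markers ran from 27.3 to 29.6 and from 3.07 to 4.52 CPM. Of these, Adipoq, Fabp4, Plin1 and Lep lay under 0.5 CPM in every library, and Pparg was called lower. The summed endothelial, blood and epithelial markers stayed under 4 CPM in each library. Pecam1 of the endothelial list and Csf1r of the blood list were called higher. Summed endothelial markers ran from 0.262 to 0.421 CPM in control and from 2.81 to 3.16 CPM in Hdac4-knockdown libraries. The part of these changes in the collagen results was not tested. In bulk RNA, a change in the number of cells of a type and a change in RNA per cell cannot be told apart.

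All 10 fibrillar collagen genes passed the count filter. In Hdac4-knockdown libraries 9 of them were higher, none was lower and Col24a1 was not called, where a call needs an edgeR adjusted p below 0.05 together with an absolute log2 fold change over 0.05. The call was common in these data, with 38.0% of all tested genes higher and 37.1% lower, 75.1% in all. A log2 fold change above 1 was reached by 8 members against 16.5% of all genes, and one above 2 by 7 members against 8.23%. The members had a median log2 fold change of 2.61, against 0.01 over all tested genes. The 3 control and 3 Hdac4-knockdown libraries did not overlap for any of the 10 members, as was the case for 76.8% of all genes.

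**Figure D1:**
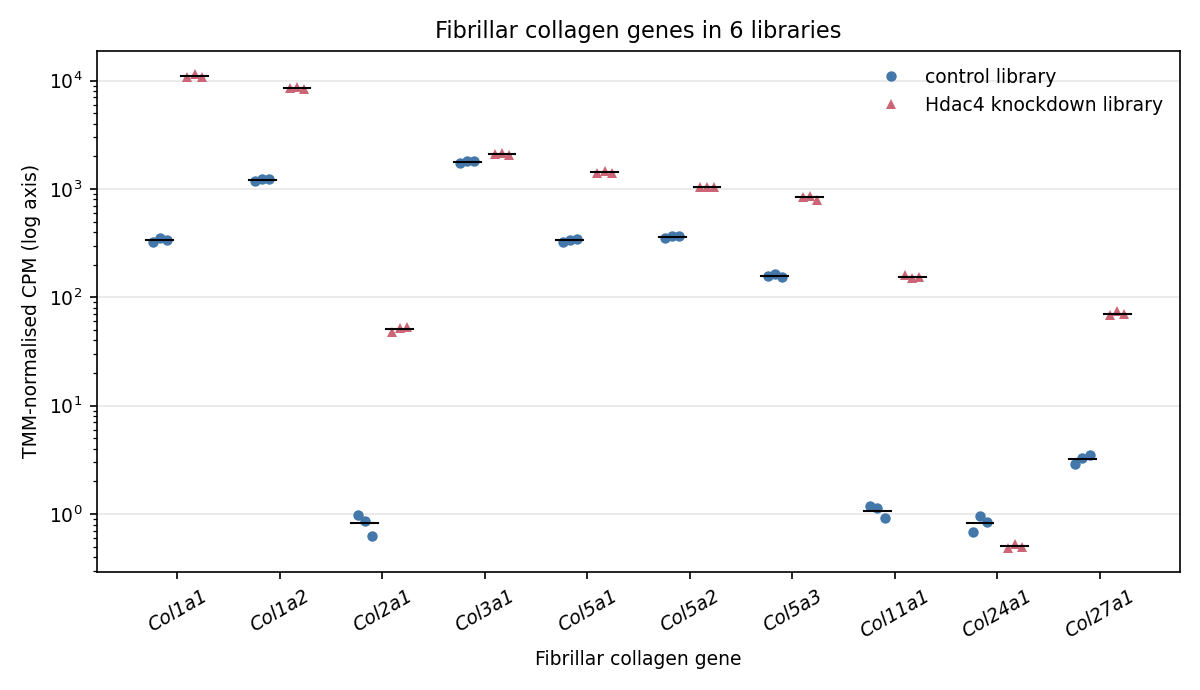
TMM-normalised counts scaled to library size, CPM (log axis), of the 10 fibrillar collagen genes in each of 3 control libraries (blue circles) and 3 Hdac4-knockdown libraries (red triangles), with lines at the group means. Col1a1 moves from near 338 to near 11015 CPM, Col3a1 stays close to its control level, and Col24a1 is below 1 CPM in both groups.

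Among the members, type I collagen showed the greatest gain in reads. Col1a1 (ENSMUSG00000001506, chr11:94936224-94953042, plus strand), which encodes the α1 chain, measured 322, 351 and 340 CPM in the control libraries. In the Hdac4-knockdown libraries it measured 10806, 11390 and 10848 CPM. Every knockdown library lay far above every control library, and the rank of Col1a1 among all genes by count moved from 514, 470 and 482 to 2, 1 and 1. The means were 338 ± 14.4 and 11015 ± 326 CPM (SD, n = 3), a 32.6-fold difference and a log2 fold change of 5.03 (SE 0.0446, edgeR adjusted p = 6.19e-24).

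Col1a2 (chr6:4504814-4541544, plus strand) encodes the α2 chain, which joins α1 chains in the type I trimer. It measured 1188, 1229 and 1224 CPM in control and 8527, 8752 and 8437 CPM in Hdac4-knockdown libraries. It was already among the abundant transcripts of control cells, at rank 66, 67 and 64 by count, and stood at rank 4 in each knockdown library. The means of 1213 ± 22.5 and 8572 ± 163 CPM (SD, n = 3) differed 7.06-fold (log2 fold change 2.82, SE 0.0361, edgeR adjusted p = 2.95e-22). The 95% intervals of the log2 fold changes, 4.93 to 5.12 for Col1a1 and 2.75 to 2.90 for Col1a2, did not meet.

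Type III collagen changed least among the called members. Col3a1 (chr1:45311538-45349706, plus strand), whose product is a trimer of identical chains, measured 1732, 1817 and 1813 CPM in control and 2117, 2129 and 2049 CPM in Hdac4-knockdown libraries. The groups did not overlap, but the gap between the highest control and the lowest knockdown library was small beside that of the type I genes. The means were 1787 ± 48.3 and 2098 ± 43.5 CPM (SD, n = 3), or 1.17-fold (log2 fold change 0.23, SE 0.0357, edgeR adjusted p = 8.75e-06). Of its 9816 exon bases, 141 are shared with the microRNA gene Gm47302, which had no counts. Reads on those bases may have been set aside as ambiguous.

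The type V genes rose together by smaller amounts than the type I genes. Col5a1 (chr2:27886425-28039514, plus strand) encodes the α1 chain found in nearly all type V trimers. It measured 326, 339 and 347 CPM in control and 1408, 1457 and 1407 CPM in Hdac4-knockdown libraries, 4.22-fold (log2 fold change 2.08, SE 0.0388, edgeR adjusted p = 7.61e-20). Of its 8490 exon bases, 212 lie opposite 2810430I11Rik or Gm13372 on the other strand. The library kit does not mark strand, so reads there cannot be assigned to either gene. These neighbours had at most 106 counts in a library, a small number beside Col5a1, which leaves out any reads set aside as ambiguous.

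Col5a2 (chr1:45374321-45503282, minus strand), the α2 chain, lies beside Col3a1 on chromosome 1, and the pair are transcribed toward each other. Col5a2 measured 352, 365 and 364 CPM in control and 1053, 1043 and 1047 CPM in Hdac4-knockdown libraries. It rose 2.91-fold (log2 fold change 1.54, SE 0.0366, edgeR adjusted p = 3.41e-18), while its neighbour differed 1.17-fold. Col5a3 (chr9:20770050-20815067, minus strand), a rarer α3 chain, measured 158, 162 and 154 CPM in control and 850, 869 and 797 CPM after knockdown. No control library of Col5a3 came near a knockdown library (5.31-fold, log2 fold change 2.41, SE 0.0432, edgeR adjusted p = 4.06e-20).

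**Figure D2:**
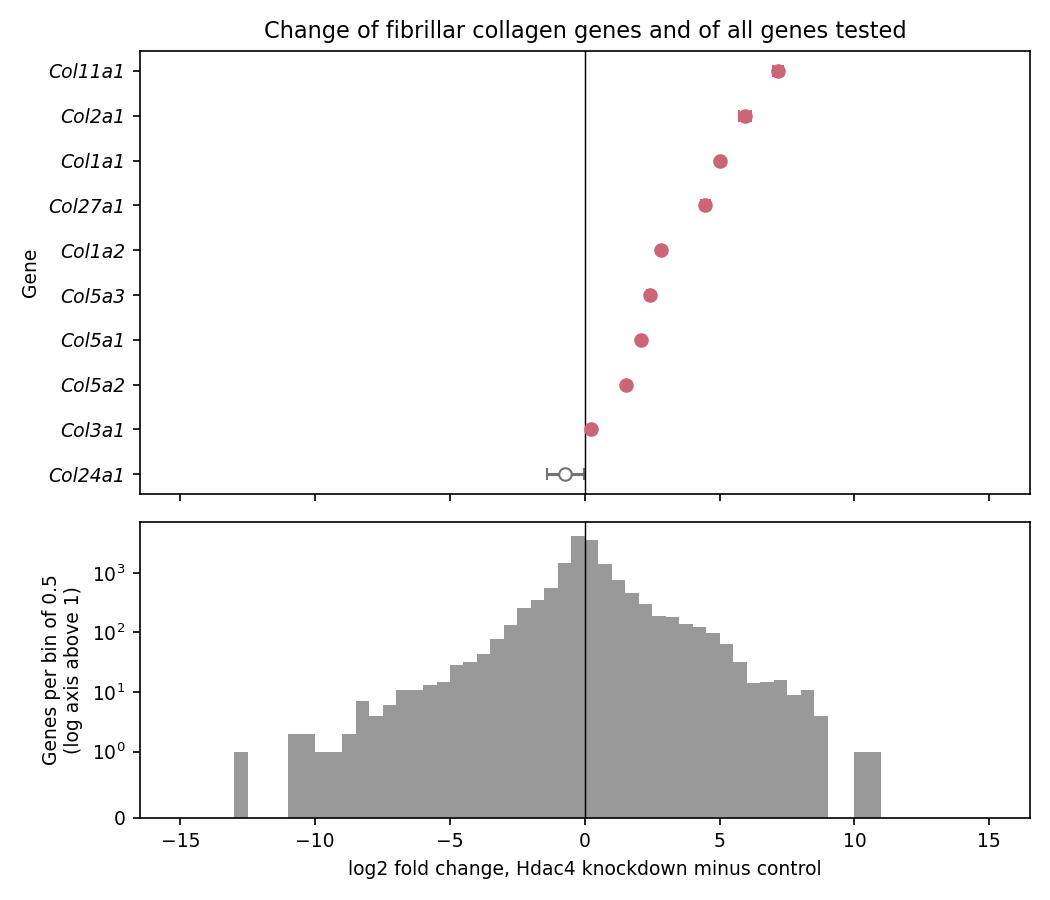
Upper panel, log2 fold change (Hdac4 knockdown minus control) of each fibrillar collagen gene with its 95% interval from edgeR, filled where called. Lower panel, number of all tested genes per bin of 0.5 in log2 fold change (log axis above 1), in which Col11a1 at 7.16 falls in the far right tail.

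The largest fold changes among the members were those of Col11a1 and Col2a1, which encode cartilage chains and had low levels in control cells. Col11a1 (chr3:114030540-114220718, plus strand), the α1 chain of type XI collagen, was counted 36, 34 and 26 times in control and 4923, 4868 and 4674 times in Hdac4-knockdown libraries. These counts are 1.18, 1.14 and 0.912 CPM against 159, 151 and 155 CPM. The means differed 144-fold (log2 fold change 7.16, SE 0.081, edgeR adjusted p = 7.42e-23), and 39 of the 14531 tested genes had a larger log2 fold change. Col11a2, the other type XI gene, which is not a member, differed much less, at 3.10 ± 0.266 and 4.69 ± 0.442 CPM (SD, n = 3; log2 fold change 0.60, edgeR adjusted p = 0.00149). Col11a1 itself passed from a trace to the level at which Col5a3 stood in control cells, in CPM that are not adjusted for length.

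Col2a1 (chr15:97975602-98004695, minus strand), the chain of type II collagen, was counted 30, 26 and 18 times in control and 1495, 1683 and 1586 times in Hdac4-knockdown libraries. Its means were 0.827 ± 0.179 and 51.1 ± 2.40 CPM (SD, n = 3), 61.7-fold apart (log2 fold change 5.93, SE 0.111, edgeR adjusted p = 8.21e-20). The control values rest on few counts, and with any 1 library removed the log2 fold change lay between 5.77 and 6.07. Other chondrocyte genes did not all accompany these 2 chains. Acan and Col9a1, which encode the main cartilage proteoglycan and a chain of type IX collagen, had no counts in any library, and Matn1, Matn3, Hapln1 and Cnmd stayed under 0.5 CPM. Comp and Col10a1 rose but stayed low. The 9 chondrocyte markers summed to 124 to 128 CPM in control and 117 to 135 CPM in Hdac4-knockdown libraries. This sum is nearly all Sox9, at 126 and 127 CPM, which leaves little for the other markers of the list, Comp and Col10a1 included. Sox9, an activator of Col2a1 and Col11a1 in cartilage, had a log2 fold change of 0.02 (edgeR adjusted p = 0.749) and was not called. Its partners Sox5 and Sox6 were both higher, from 1.78 to 5.63 CPM (log2 fold change 1.66, edgeR adjusted p = 3.30e-08) and from 0.293 to 4.22 CPM (log2 fold change 3.83, edgeR adjusted p = 5.33e-11). These 3 factors were singled out after their values were seen.

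The branch with the shorter helix was divided. Col27a1 (chr4:63214004-63334991, plus strand), known from cartilage, was counted 88, 98 and 100 times in control and 2134, 2390 and 2092 times in Hdac4-knockdown libraries. In CPM it measured 2.88, 3.27 and 3.51 and then 69.0, 74.2 and 69.5, a 22.0-fold difference (log2 fold change 4.46, SE 0.0801, edgeR adjusted p = 4.06e-20). Col24a1 (chr3:145292472-145552011, plus strand), known from forming bone, was counted 21, 29 and 24 times in control and 15, 17 and 15 times after knockdown. Its control libraries all lay above its knockdown libraries, at 0.687, 0.969 and 0.842 against 0.485, 0.528 and 0.498 CPM. The log2 fold change was -0.72 (95% interval -1.42 to -0.02) with an edgeR adjusted p of 0.0579, so Col24a1 was not called. Over the alternatives its adjusted p ran from 0.0399 to 0.193. It was called lower with a filter of at least 10 counts in every library, where p-values are adjusted over another set of genes, at a log2 fold change of -0.68.

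Added up, the 10 genes took 0.402%, 0.417% and 0.416% of all gene counts in control libraries and 2.55%, 2.64% and 2.53% in Hdac4-knockdown libraries. Their summed level was 4200 ± 102 CPM in control and 25273 ± 566 CPM after knockdown (SD, n = 3), a 6.02-fold difference. Without Col1a1 the sum went from 3862 ± 88.4 to 14258 ± 258 CPM (SD, n = 3), or 3.69-fold. The sum was tested by no statistic.

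The makeup of these reads changed with their number. Col3a1 held 42.5% of fibrillar collagen counts in control libraries and 8.30% in Hdac4-knockdown libraries, whereas Col1a1 held 8.04% and 43.6%. Col1a2 stayed the second share in both groups, with 28.9% and 33.9%. The shares of the type V genes were lower after knockdown although each of them rose in CPM, as Col5a1 moved from 8.03% to 5.63%, Col5a2 from 8.59% to 4.15% and Col5a3 from 3.76% to 3.32%. Col11a1, Col27a1 and Col2a1 came to 0.614%, 0.280% and 0.202% of the fibrillar collagen counts in Hdac4-knockdown libraries. These shares are of counts, in which a longer transcript weighs more.

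**Figure D3:**
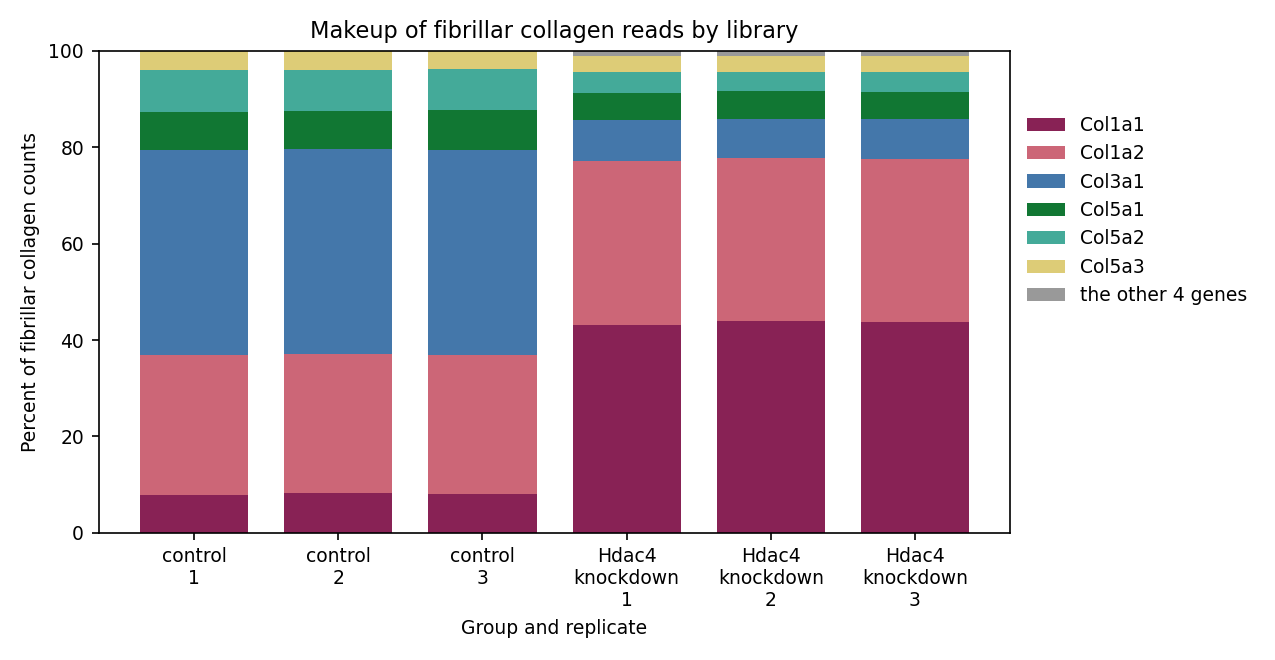
Percent of all fibrillar collagen counts taken by each gene in each of the 3 control and 3 Hdac4-knockdown libraries, as stacked bars from 0 to 100. Col3a1 (blue) is the largest share in the control libraries at 42.5% on average, and Col1a1 (dark red) in the knockdown libraries at 43.6%.

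Levels of different genes can be set side by side only per length. Per kilobase of all annotated exon bases, the order in control libraries was Col3a1 (182 CPM per kilobase), Col1a2 (97.7), Col1a1 (51.5), Col5a1 (39.7), Col5a2 (37.6) and Col5a3 (23.2). Col27a1 (0.247) followed, and Col24a1 (0.109), Col2a1 (0.0895) and Col11a1 (0.0844) came last with overlapping ranges, so their order is not resolved. The 6 genes of types I, III and V thus formed one group in control cells, and the other 4 lay far below it.

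In Hdac4-knockdown libraries the order per kilobase was Col1a1 (1678 CPM per kilobase), Col1a2 (690), Col3a1 (214), Col5a1 (168), Col5a3 (123), Col5a2 (109), Col11a1 (12.2), Col2a1 (5.53), Col27a1 (5.44) and Col24a1 (0.0661). The ranges of Col2a1 and Col27a1 overlapped, and those of the other neighbours did not. The 2 type I genes had moved above Col3a1. Per kilobase of the longest coding transcript, a length chosen as an alternative after seeing the data, Col5a2 (54.4) lay above Col5a1 (40.1) in the control libraries and met the range of Col1a1 (57.0). Col5a2 (158) also lay above Col5a3 (137) in the knockdown libraries. Col3a1 still led in control (321) and Col1a1 after knockdown (1857).

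Ratios within a library do not depend on the scaling between libraries, and 4 of them were compared. The ratio of Col1a1 to Col1a2, per kilobase of exon, was 0.514, 0.541 and 0.526 in control libraries. It was 2.40, 2.46 and 2.43 in Hdac4-knockdown libraries. The mean went from 0.527 ± 0.0134 to 2.43 ± 0.0323 (SD, n = 3), a 4.62-fold change in the balance of the transcripts for the 2 type I chains. The size of the ratio depends on the lengths used, since Col1a2 has 12426 annotated exon bases and a longest coding transcript of 5348 bases. With the latter lengths it was 0.251 in control and 1.16 after knockdown. The fold between groups is the same with either length.

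The type V pair moved less. Col5a1 to Col5a2 was 1.05, 1.05 and 1.08 in control and 1.51, 1.58 and 1.52 in Hdac4-knockdown libraries, 1.45-fold higher on average. Per kilobase of the longest coding transcript the control mean was 0.737 and the knockdown mean 1.07, so which of the pair is higher in control cells depends on the length used. Col3a1 to Col1a1 was 3.59, 3.46 and 3.56 in control and 0.131, 0.125 and 0.126 after knockdown. The transcript of the type III chain thus went from above to well below that of the α1(I) chain, a log2 change of -4.80. Col5a1 to Col1a1 had a mean of 0.772 in control and 0.100 in Hdac4-knockdown libraries, a log2 change of -2.95. In each of the 4 ratios the 3 libraries of a group lay apart from the other 3. The two-sided exact permutation test over libraries gave p = 0.1 for each (0.1 after Benjamini-Hochberg adjustment over the 4), the smallest p that 3 libraries against 3 allow, so the test cannot pass 0.05.

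**Figure D4:**
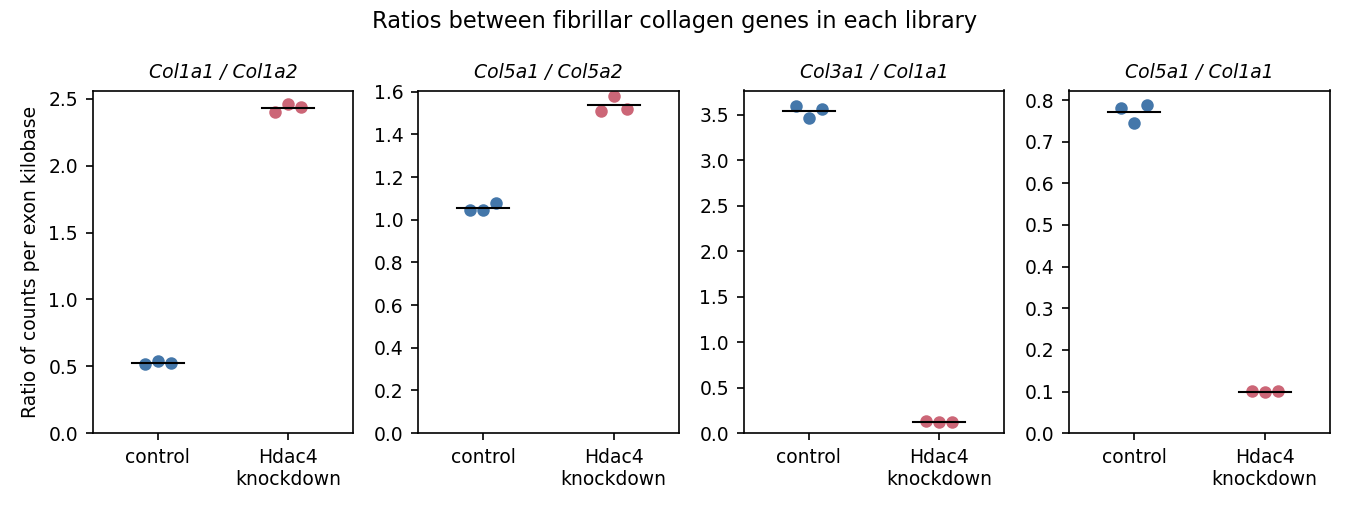
Ratios of counts per exon kilobase between fibrillar collagen genes in each library, one panel per ratio with its own axis from 0; points are libraries (blue control, red Hdac4 knockdown) and lines are group means. Col1a1 to Col1a2 goes from 0.527 to 2.43 and Col3a1 to Col1a1 from 3.54 to 0.127.

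The genes whose pattern over the 6 libraries was most like that of Col1a1 were sought among 10824 tested genes with a mean of at least 100 counts. Likeness was the Euclidean distance between log2 CPM values centred on each gene's mean. Sod3, the extracellular superoxide dismutase, was nearest at a distance of 0.119 and went from 2.39 to 97.6 CPM. Ccn5, a secreted matricellular protein, followed at 0.193 and Col8a2, a chain of the network-forming type VIII collagen, at 0.205. With 2 groups of libraries this distance mostly reflects a similar fold between groups.

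Fibrillar collagen is processed by many other proteins, which were grouped in 6 lists of 71 genes. Of the 63 that passed the count filter, 40 were higher, 17 lower and 6 not called in Hdac4-knockdown libraries, with a median log2 fold change of 0.35 beside 0.01 for all genes. Over all tested genes 38.0% were higher and 37.1% lower, the shares against which the counts of each list are to be read.

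The fibril-associated collagens and fibril regulators had 10 of 11 tested genes higher, 1 lower and a median log2 fold change of 3.16. Biglycan (Bgn), a small proteoglycan that binds type I fibrils, went from 59.5 ± 2.54 to 1659 ± 45.1 CPM (SD, n = 3; log2 fold change 4.80, edgeR adjusted p = 1.60e-23). Fibromodulin (Fmod), which governs fibril thickness, was counted 1, 0 and 1 times in control and 1550, 1755 and 1561 times after knockdown. Col14a1, a fibril-associated collagen, was also higher but stayed low, at 0.137 and 0.420 CPM. It was not called by DESeq2 (adjusted p = 0.0808), nor in edgeR without control replicate 1 (adjusted p = 0.0701) or without Hdac4-knockdown replicate 3 (adjusted p = 0.0511). Thbs2, whose product limits fibril diameter, was the gene that fell, from 391 to 173 CPM (log2 fold change -1.18).

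Folding and modification enzymes act on the chains in the endoplasmic reticulum. Of 17 tested, 12 were higher, 3 lower and 2 not called, and the median log2 fold change was 0.48. The prolyl 3-hydroxylase P3h2 (2.96 to 25.8 CPM, log2 fold change 3.13) and the prolyl 4-hydroxylase subunit P4ha3 (7.31 to 44.2 CPM, log2 fold change 2.60) rose most. P4ha2, another prolyl 4-hydroxylase subunit, fell from 71.7 to 39.4 CPM (log2 fold change -0.86), and the lysyl hydroxylase Plod1 fell from 98.7 to 86.4 CPM (log2 fold change -0.19). Plod1 was not called with upper quartile normalization (edgeR adjusted p = 0.0552). Of the 17 genes, 4 were higher by a log2 fold change above 1, beside 16.5% of all genes.

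The enzymes that act outside the cell were divided. Among 5 tested propeptide proteinases and enhancers, Adamts2, the main N-propeptidase of type I collagen, rose from 32.3 to 102 CPM (log2 fold change 1.66), and Pcolce, an enhancer of C-propeptide removal, from 377 to 457 CPM (log2 fold change 0.28). Pcolce2 (132 to 75.6 CPM), Adamts14 (59.0 to 35.4 CPM) and Bmp1, the C-proteinase (261 to 228 CPM), fell. Bmp1 was not called with upper quartile normalization (edgeR adjusted p = 0.0770). The list's median log2 fold change was -0.19.

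Among the 5 cross-linking oxidases, Lox rose from 322 ± 16.8 to 1272 ± 103 CPM (SD, n = 3; log2 fold change 1.98, edgeR adjusted p = 2.08e-17) and Loxl4 from 9.79 to 64.6 CPM (log2 fold change 2.72). Loxl1 fell from 47.4 to 17.3 CPM (log2 fold change -1.45). Loxl2 was counted 2382, 2667 and 2295 times in control and 7, 8 and 13 times in Hdac4-knockdown libraries (log2 fold change -8.08, SE 0.126, edgeR adjusted p = 5.10e-21). Loxl3 was not called. Lox had the highest CPM of the 5 in both groups, not adjusted for length, and Loxl2 was nearly without reads after knockdown.

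Of 7 tested fibrillar collagen receptors, 5 were higher, 1 was lower and Itgb1 was not called. Itga11, the α11 integrin chain that binds type I collagen, went from 0.538 to 88.7 CPM (log2 fold change 7.35, SE 0.0999, edgeR adjusted p = 7.18e-22). Itga1, the α1 integrin chain, was higher on few counts (6, 0 and 1 in control and 40, 32 and 19 after knockdown). The receptor kinases Ddr2 and Ddr1 differed in direction, from 238 to 298 CPM and from 86.5 to 65.9 CPM.

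Among 18 transcription factors known to act on fibrillar collagen genes, 9 were higher, 7 lower and 2 not called, near the 38.0% higher and 37.1% lower of all genes, and the median log2 fold change was 0.10. Fli1, a repressor of type I collagen genes in fibroblasts, rose from 0.225 to 5.59 CPM (log2 fold change 4.61). Sp7, the osteoblast factor osterix, rose from 0.145 to 2.71 CPM (log2 fold change 4.18). Scx, an activator of Col1a1 in tendon, fell from 40.2 to 15.6 CPM (log2 fold change -1.36), and Nfyc, a subunit of the CCAAT-binding factor, from 51.0 to 35.1 CPM (log2 fold change -0.54). Of 5 tendon markers, 2 were tested, and Scx was lower and Mkx higher. The list summed to 39.3 to 42.3 CPM in control, nearly all of it Scx, and to 24.4 to 28.8 CPM after knockdown, with Tnmd at 0 in every library.

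**Figure D5:**
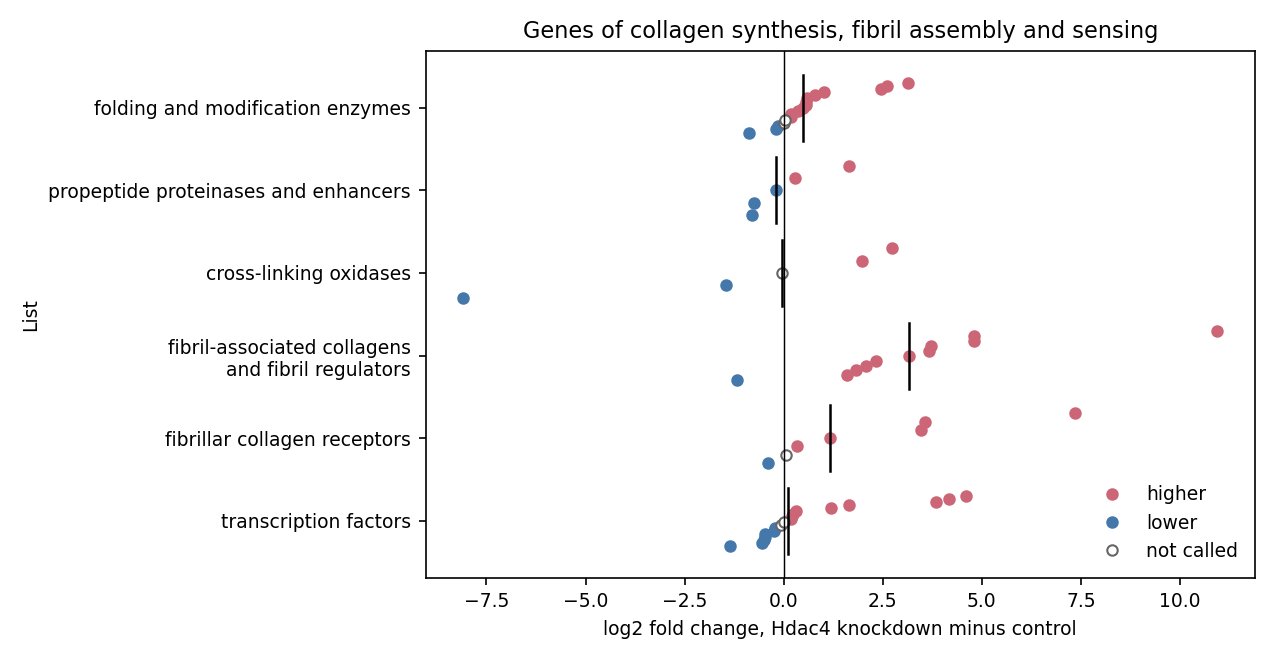
Log2 fold change (Hdac4 knockdown minus control) of each tested gene in 6 lists of collagen synthesis, assembly and sensing, coloured by call, with a vertical bar at each list's median. The fibril-associated collagens and fibril regulators have a median of 3.16; the point at the far right is Fmod, whose fitted value rests on 2 control counts in all.

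Promoter windows from RefSeq (GRCm38.p6), running from 250 bases before to 50 bases after the annotated start, were found for 7 of the 10 genes, Col1a2, Col3a1, Col5a1, Col5a3, Col11a1, Col24a1 and Col27a1. The windows of Col1a2 and Col27a1 lie inside the genes as annotated in GENCODE M21, which start further upstream. In Col1a2, 127 of the 250 bases before the RefSeq start lie in GENCODE exons. The 250 bases before the start are shown for 4 genes with different responses, in the direction of transcription. Col11a1 and Col5a3 rose, Col3a1 changed little and Col24a1 was not called. Capitals mark matches on either strand to TATAAA (the TATA box), to CCAAT (the CCAAT box) and to GGGCGG (the GC box).

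Col11a1, chr3:114030290-114030539, plus strand: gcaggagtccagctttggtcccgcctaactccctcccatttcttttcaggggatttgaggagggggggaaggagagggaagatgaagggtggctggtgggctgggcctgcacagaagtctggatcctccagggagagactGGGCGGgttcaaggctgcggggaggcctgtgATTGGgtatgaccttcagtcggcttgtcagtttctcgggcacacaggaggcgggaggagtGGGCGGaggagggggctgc
Col5a3, chr9:20815068-20815317, minus strand: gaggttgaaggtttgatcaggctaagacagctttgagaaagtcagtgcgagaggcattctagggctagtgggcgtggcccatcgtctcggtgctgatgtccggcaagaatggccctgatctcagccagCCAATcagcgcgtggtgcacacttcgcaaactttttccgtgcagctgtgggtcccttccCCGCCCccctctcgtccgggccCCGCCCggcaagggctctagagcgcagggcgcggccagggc
Col3a1, chr1:45311288-45311537, plus strand: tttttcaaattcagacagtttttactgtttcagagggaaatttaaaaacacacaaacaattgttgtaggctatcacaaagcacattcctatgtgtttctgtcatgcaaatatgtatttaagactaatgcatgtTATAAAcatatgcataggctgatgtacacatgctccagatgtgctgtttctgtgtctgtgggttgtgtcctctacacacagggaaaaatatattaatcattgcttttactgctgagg
Col24a1, chr3:145292222-145292471, plus strand: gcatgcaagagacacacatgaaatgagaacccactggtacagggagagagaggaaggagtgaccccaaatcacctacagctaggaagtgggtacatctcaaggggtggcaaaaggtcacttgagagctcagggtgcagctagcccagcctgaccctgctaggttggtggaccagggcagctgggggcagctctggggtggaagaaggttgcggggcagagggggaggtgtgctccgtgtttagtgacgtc

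In the windows of 300 bases, GGGCGG was found in 5 of the 7 genes (Col1a2, Col5a1, Col5a3, Col11a1, Col27a1), beside 35.7% of 32851 windows of all genes. CCAAT was found in 3 (Col1a2, Col5a3, Col11a1), beside 37.4% of all windows. Of the genes that rose and are not shown, Col1a2 had CCAAT, and Col5a1 and Col27a1 did not. The part of these motifs in the responses was not tested. TATAAA was found in Col3a1 alone, beside 13.6% of all windows. TGTGGT, the core of the site bound by Runx2, and the MEF2 motif, bound by a partner that Hdac4 is known to repress, were in none of the 7 windows and in 16.8% and 1.86% of all windows. Each motif was searched on both strands. The MEF2 motif can contain the letters TATAAA, and the other motifs do not contain one another. A match describes the letters only, and an absence covers this window only.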

How the data were processed

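The 6 poly-A selected libraries (3 control, 3 Hdac4 knockdown) were sequenced in pairs on an Illumina instrument. The authors deposited 1 table of raw counts per library, reads on each Ensembl gene, not normalized. The submitters' processing notes name FastQC, STAR 2.7.3a, HTSeq 0.12.4 and mm10, and the annotation release is not given in the sources used here. Of 53801 identifiers, 53706 matched GENCODE M21. Reads outside genes took 3.28% of the tables in control and 4.79% in knockdown libraries and were left out. Same-group libraries differed by more than sampling noise (chi-square per degree of freedom 3.23 to 8.36).

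Counts were tested with edgeR 4.0.16 (TMM, filterByExpr, quasi-likelihood F test, Benjamini-Hochberg over 14531 genes). Calls needed adjusted p below 0.05 and log2 fold change beyond 0.05. The members, lists and naming rules were chosen with earlier results of these data known. Named were Hdac4, the members, all called genes of a list up to 5 (otherwise the 2 highest and 2 lowest log2 fold changes), and the 3 genes nearest to Col1a1. Tested on simulated data (13439 genes), edgeR recovered 88.8% of 197 planted changes with 5 false calls. In the 6 libraries 75.1% of tested genes were called, and recovery with so large a share was not tested. Alternatives were other normalizations and filters, DESeq2 1.42.0, limma-voom (limma 3.58.1), a replicate block, a threshold of 1, length and leaving out each library.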

Additional observations from a re-analysis of the deposited data

Results flagged for a closer look

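Several shares of reads outside the gene counts differed between the groups. Reads that fell outside annotated genes made up 4.79% ± 0.241 of the reads in the tables of Hdac4-knockdown libraries and 3.28% ± 0.122 in control libraries (SD, n = 3). The lowest knockdown library, at 4.64%, lay above the highest control library, at 3.41% (p = 0.1 by a two-sided exact permutation test, which cannot go lower with 3 libraries in each group). Ambiguous reads made up 6.36%, 6.51% and 6.37% of the tables in control libraries and 5.84%, 5.92% and 5.88% in Hdac4-knockdown libraries. Reads without a unique alignment made up 4.77%, 4.61% and 4.75% in control and 4.13%, 3.88% and 4.15% in Hdac4-knockdown libraries. None of these reads enters a value given for the fibrillar collagen genes, and their part in the results was not tested.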

How the results depend on the processing

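The 9 members called higher stayed called with the same direction under each alternative fit (other normalizations, filters, DESeq2, limma-voom, the block and each library left out). With a log2 fold change threshold of 1 they numbered 8, without Col3a1. Members called lower were 0, but 1 (Col24a1) with at least 10 counts in every library. Leaving out each library gave log2 fold changes of 4.98 to 5.05 for Col1a1, 0.20 to 0.25 for Col3a1 and -0.85 to -0.60 for Col24a1. For Col3a1 the normalization mattered more, with 0.29 with library size alone and 0.32 with upper quartile normalization, beside 0.23 in the main fit. The summed level differed 6.26-fold with library size alone and 6.40-fold with upper quartile normalization. Among the related lists, a threshold of 1 left 4 higher and 0 lower folding and modification enzymes, 1 higher and 0 lower propeptide proteinases and enhancers, 0 lower receptors, and 5 higher and 1 lower transcription factors. Upper quartile normalization left 1 folding and modification enzyme lower, and at least 10 counts in every library left 1 cross-linking oxidase lower, since Loxl2 is then not tested. The cause of the other shifts was not tested.

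Same-numbered libraries deviated together with correlations of -0.0111, 0.0270 and 0.0166, so the numbers were not taken to pair the groups, and not every library correlated best with its own number. With the replicate number as a block, 9 members were higher and 0 lower (Col24a1 adjusted p = 0.0989, edgeR), and over all genes 5523 were higher and 5441 lower. The block changed no call of a member. Low counts limit Col24a1, with 15 to 29 counts per library, and the control values of Col2a1 and Col11a1.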
